A study of Drosophila melanogaster with 6 samples.

Results

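The vacuolar H+-ATPase (V-ATPase) genes of Drosophila melanogaster were followed in RNA from whole larval intestines. The members are all genes of the count table whose FlyBase symbol begins with Vha, together with ATP6AP2, and they are 34 of 17895 genes in a table of 24278 entries. They encode 15 kinds of subunit or accessory protein. By general knowledge of which copy makes up the epithelial pump, 9 genes were classed as the main copy of a subunit that has several genes and 6 as the only gene of their subunit. The remaining 19 genes were classed as other copies, and in Drosophila several of these are known for expression in few tissues, such as testis or neurons. The study asked which genes in enterocytes, the absorptive cells of the midgut, respond to the ecdysone receptor EcR. RNA-seq was done on 3 libraries labelled EcRi and 3 libraries labelled control.

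In both groups Tub-LexA drove a LexO RNAi hairpin against spok, a gene of ecdysone synthesis, to stop larvae making ecdysone of their own. Both also carried Tub-GAL80ts, a temperature-sensitive block on GAL4 and on this LexA driver, and a UAS hairpin against EcR. By the crosses in the methods, EcRi larvae in addition carried the enterocyte driver Myo1A-GAL4, and control larvae carried the hairpin with no GAL4 driver. The titles of the control samples instead name myo1a, a conflict that could not be resolved from these sources. Eggs were collected over 8 h, and larvae spent 6 days at 18 °C and then 4 days at 29 °C. Both GAL4 and the LexA driver are active at 29 °C, so the knockdown of spok was induced only with that shift. The sex of the larvae and how many were used per library are not given in the sources used here. The titles call the libraries biological replicates but do not say that they came from separate crosses, so p-values measure the spread between these libraries.

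The V-ATPase is a rotary proton pump. Its V1 sector in the cytosol hydrolyses ATP, and its Vo sector in the membrane carries protons through a ring of proteolipids, the small membrane subunits that bind them. The pump acidifies lysosomes and endosomes in every cell, and in insects it also sits in the apical membrane of gut and Malpighian tubule cells, where it acidifies the lumen or energizes ion transport. The copy of subunit a in a given pump is known to decide where in the cell that pump is placed.

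The libraries held between 200890663 and 246255664 counts, so 3 counts corresponded to between 0.0122 and 0.0149 CPM (each count relative to the total of its library), a floor that covers counting error only. Levels below are CPM scaled by edgeR's TMM method, and differences are log2 fold changes of EcRi over control from its quasi-likelihood test on 12193 entries, with Benjamini-Hochberg adjustment and a threshold of 0.05. The TMM factors were 1.21 to 1.30 in EcRi libraries and 0.713 to 0.845 in control libraries, and the 10 most abundant genes took 9.65 to 10.7% of counts in EcRi libraries and 17.9 to 22.1% in control libraries. The scaling therefore bears on every direction: over all tested entries the median difference on the log2 scale was 0.03 with TMM and 0.68 with library totals alone. EcR itself had 29.9 ± 1.87 CPM in EcRi libraries and 33.5 ± 10.5 CPM in control libraries (SD, n = 3 each). Its log2 fold change was -0.17, with an adjusted p of 0.517 by edgeR's quasi-likelihood test. The mRNA of EcR thus does not check the labels, and every direction below is that of the libraries so labelled. Marker genes of other cell types moved with the labels too, where 30.1% of all entries rose and 29.3% fell with TMM, and 57.3% rose and 12.7% fell with library totals. All 5 of 5 visceral muscle markers fell with both scalings, with a summed level of 520 to 648 CPM in EcRi libraries and 1829 to 2245 CPM in control libraries. Of 6 tracheal markers 4 rose with TMM and 5 with library totals, with sums of 638 to 713 CPM in EcRi libraries and 81.9 to 122 CPM in control libraries. All 7 enterocyte markers were above the floor, and with TMM 1 rose and 3 fell, whereas with library totals 3 rose and 2 fell. Malpighian tubules, which carry much V-ATPase and are attached to the gut, were represented by all 9 of their markers, of which 1 rose and 5 fell with TMM and 4 rose and 5 fell with library totals, with sums of 1647 to 1836 CPM in EcRi libraries and 1872 to 2213 CPM in control libraries. The part of these cell types in the V-ATPase values was not tested, and in RNA from a whole organ fewer cells of a type and less RNA per cell cannot be told apart.

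Transcripts of the pump as a whole were lower in EcRi intestines, and how much lower depended on the scaling. The summed level of the 34 genes was 10174, 10079 and 9793 CPM in the EcRi libraries, against 19192, 20035 and 21360 CPM in the control libraries. The EcRi sums all lay below the control sums, with a 2.01-fold lower geometric mean (log2 ratio -1.01, two-sided exact permutation p = 0.1, the smallest that 3 against 3 libraries can give). As a plain share of all counts, V-ATPase transcripts took 1.23 to 1.27% in EcRi libraries and 1.52 to 1.69% in control libraries, and by library totals the summed level was 1.28-fold lower (log2 ratio -0.35, exact p = 0.1). Of the 34 genes, 27 passed the filter on low counts. Among these 27, 19 fell and 4 rose, where 29.3% of all tested entries fell and 30.1% rose. Every EcRi library lay below every control library for 21 of the tested genes and above for 4, where the shares over all entries were 33.4% below and 34.9% above. With library totals, 12 of the 27 fell and 5 rose, against 12.7% of all entries that fell and 57.3% that rose.

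Main and other copies were then counted apart. All 15 main and single-copy genes fell, and their log2 fold changes lay between -1.44 for VhaPPA1-1 and -0.67 for Vha44 with a median of -1.06, whereas the median of all entries was 0.03. Of the 12 other copies that passed the filter, 4 rose, 4 fell and 4 were not called, shares close to the 30.1% and 29.3% over all entries, and the median of their log2 fold changes was -0.40. With library totals, 10 of the 15 main and single-copy genes still fell and 5 were not called, while the medians were -0.41 for these 15 genes and 0.27 for the other copies. Relative to the median of all entries, the 15 genes lay at -1.10 with TMM and at -1.09 with library totals. A change of scaling shifts all fold changes by nearly the same amount, so this agreement follows from arithmetic and tests nothing. The 5 genes that lost their call with library totals were Vha44, Vha36-1, Vha26, VhaSFD and VhaAC39-1, all with a negative fold change there as well.

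**Figure D1:**
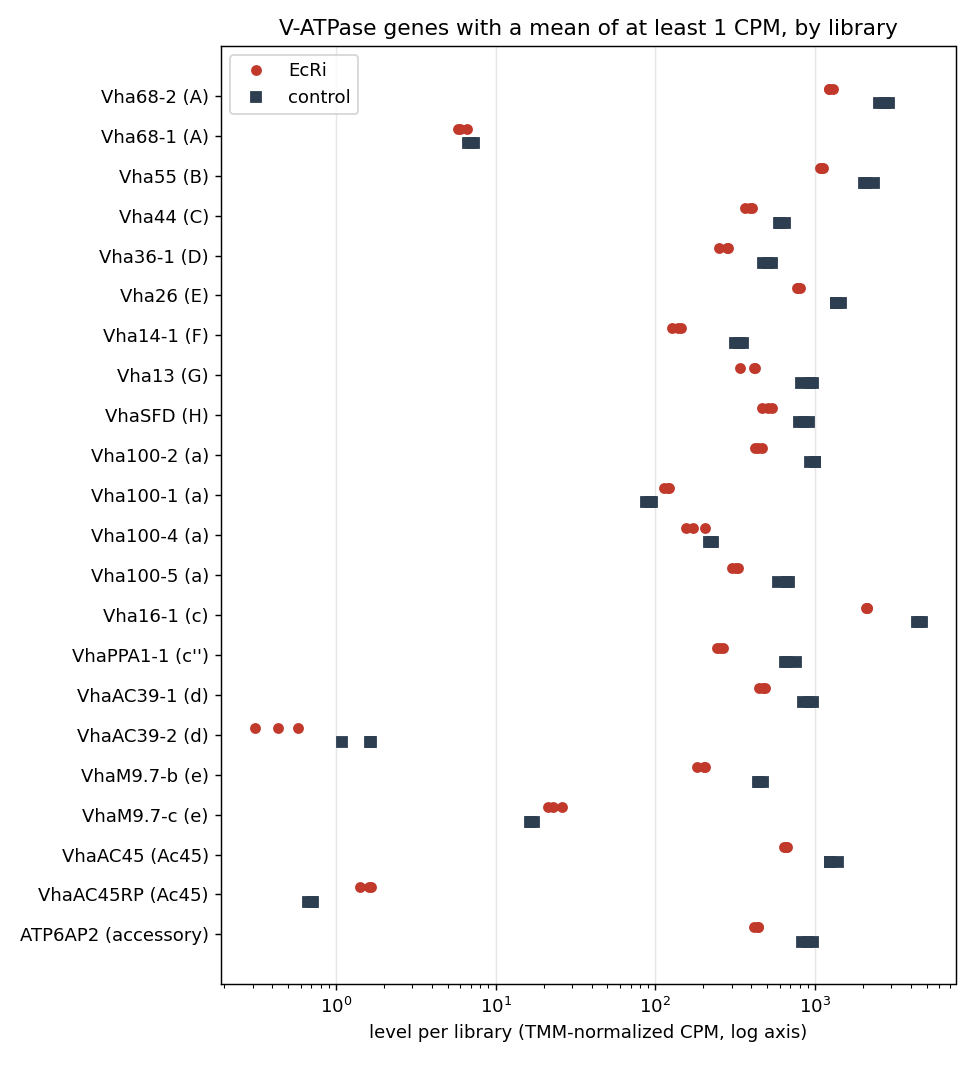
Levels of the 22 V-ATPase genes that averaged 1 CPM or more in at least 1 group, as TMM-normalized CPM on a log axis, with 1 point per library and EcRi (circles) drawn above control (squares). The 15 main and single-copy genes lie lower in EcRi without overlap, whereas Vha100-1, VhaM9.7-c and VhaAC45RP lie higher; the subunit is given in parentheses.

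In the V1 sector, all 8 main and single-copy genes fell, and their median difference was -0.93 on the log2 scale. Vha68-2 encodes subunit A, the catalytic subunit that hydrolyses ATP. It had 1290, 1216 and 1231 CPM in EcRi libraries, against 2520, 2727 and 2911 CPM in control libraries. The groups did not overlap, and the log2 fold change was -1.13 (standard error, SE, 0.12; adjusted p = 0.000168 by edgeR's quasi-likelihood test). Vha55, the single gene for subunit B that completes the ATPase ring, had 1123, 1092 and 1071 CPM in EcRi libraries and 2021, 2075 and 2327 CPM in control libraries, again apart, with a log2 fold change of -0.97. Subunits D and F form the central shaft that turns with the proteolipid ring of Vo. Vha36-1 (D) had 271 ± 19.0 CPM in EcRi and 506 ± 34.4 CPM in control libraries (SD, n = 3 each), and its log2 fold change was -0.90. Vha14-1 (F) moved further, with 138, 144 and 127 CPM in EcRi libraries, against 314, 335 and 352 CPM in control libraries, a log2 fold change of -1.29 (SE 0.10, adjusted p = 2.82e-05 by edgeR).

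The stalk and regulatory subunits of V1 covered a wider range. Vha26 (E) and Vha13 (G) build the peripheral stalks that hold the sector still. Vha26 had 787 ± 20.2 CPM in EcRi and 1386 ± 52.4 CPM in control libraries, with a log2 fold change of -0.82. Vha13 had 422, 412 and 337 CPM in EcRi libraries, against 814, 935 and 972 CPM in control libraries, with a log2 fold change of -1.22. VhaSFD (H), a regulatory subunit, had 503 ± 34.5 CPM in EcRi and 856 ± 57.3 CPM in control libraries, with a log2 fold change of -0.77. Vha44 (C) links the stalks to subunit a, and it changed least among the 15 genes. Its level was 390, 405 and 366 CPM in EcRi libraries, against 600, 599 and 647 CPM in control libraries, a log2 fold change of -0.67 (SE 0.10, adjusted p = 0.000828 by edgeR). With library totals the log2 fold change of Vha44 was -0.01 and its libraries overlapped. By the annotation, exons of Vha44 share 148 bases with Hmgs on the opposite strand, and whether counting used the strand is not stated.

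In the Vo sector, all 5 main copies fell as well, and their median difference was -1.15 on the log2 scale. Vha16-1 encodes the proteolipid c that makes up most of the ring. It had 2109, 2089 and 2120 CPM in EcRi libraries, against 4352, 4502 and 4688 CPM in control libraries. The gap between the groups was far wider than the spread within either, and the log2 fold change was -1.10 (SE 0.13, adjusted p = 0.000202 by edgeR). VhaPPA1-1, the related proteolipid c'', showed the lowest fold change of the 15 genes. It stood at 267, 254 and 243 CPM in EcRi libraries, against 646, 664 and 764 CPM in control libraries, a log2 fold change of -1.44 (SE 0.11, adjusted p = 3.15e-05 by edgeR) that was still -0.78 with library totals. VhaAC39-1 (d), which couples the ring to the shaft, had 470 ± 21.1 CPM in EcRi and 910 ± 66.4 CPM in control libraries, with a log2 fold change of -0.95. VhaM9.7-b (e), a small membrane subunit, had 196 ± 11.4 CPM in EcRi and 452 ± 19.6 CPM in control libraries, with a log2 fold change of -1.20.

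Both the main and the single-copy accessory gene fell too. VhaAC45, for a membrane glycoprotein of the Vo sector, had 669, 657 and 641 CPM in EcRi libraries, against 1247, 1241 and 1400 CPM in control libraries. Its log2 fold change was -0.98 (SE 0.11, adjusted p = 0.000196 by edgeR). ATP6AP2, known in mammals as the prorenin receptor, had 440, 438 and 413 CPM in EcRi libraries, against 827, 902 and 968 CPM in control libraries. Its groups were likewise apart, with a log2 fold change of -1.06 (SE 0.11, adjusted p = 0.000123 by edgeR).

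**Figure D2:**
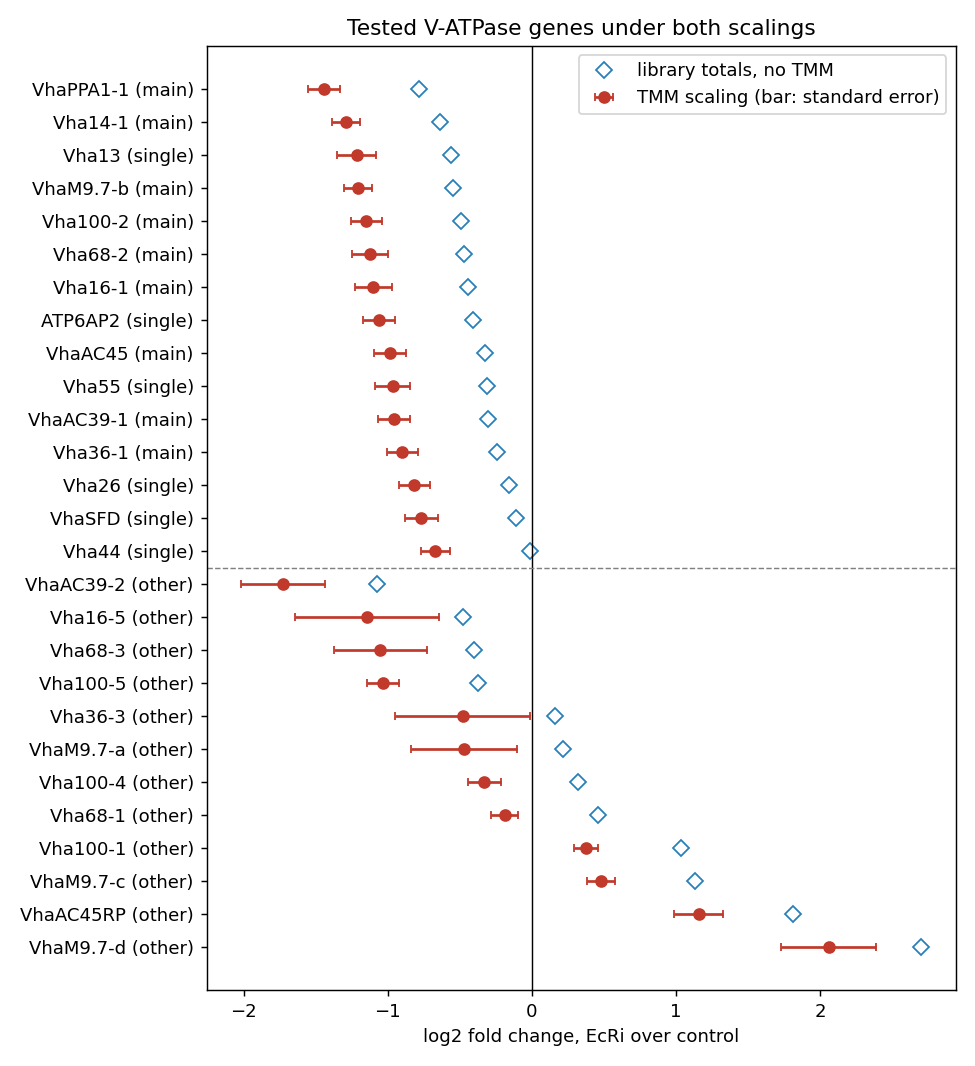
Log2 fold changes of EcRi over control for the 27 tested genes. Filled circles give the TMM-scaled value with its standard error and open diamonds the value with library totals; all 15 genes above the dashed line (main and single-copy) are negative under both, and of the other copies below it 4 change sign between the scalings.

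Set against exon length, the 6 highest genes came in the same order in both groups. Vha16-1 had the highest level per kilobase, at 684 ± 5.12 CPM per kb in EcRi and 1467 ± 54.7 CPM per kb in control libraries. Vha68-2 came next, at 452 ± 14.3 CPM per kb in EcRi and 986 ± 71.0 in control libraries. Vha13 followed at 414 ± 49.1 CPM per kb in EcRi and 962 ± 87.6 in control libraries, so that its mean ± SD overlapped that of Vha68-2 in both groups. Vha44 was the lowest of the 15, at 96.2 ± 4.95 CPM per kb in EcRi and 153 ± 6.81 in control libraries. Only Vha100-5 among the other copies stood above Vha44 in level per kilobase, at 108 ± 4.45 CPM per kb in EcRi and 222 ± 18.9 in control libraries. VhaPPA1-1 was seventh in the control libraries, at 511 ± 47.2 CPM per kb, and eleventh in the EcRi libraries, at 188 ± 8.89 CPM per kb. In the control libraries it was within the spread of VhaAC39-1 (508 ± 37.0 CPM per kb).

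The make-up of the main set was compared in a way that no scaling can alter. Each gene was taken as a share of the summed counts of the 15 genes in its own library. For 6 of the 15 genes the share was higher in every EcRi library than in any control library. For 5 it was lower in every EcRi library, and for 4 the groups overlapped. Separation was common over all entries, whose EcRi levels with TMM lay apart above control in 34.9% and below in 33.4%. Shares within a set also depend on each other, since some must fall when others rise. The genes with the higher share were Vha55, Vha44, Vha36-1, Vha26, VhaSFD and VhaAC45, of which all but VhaAC45 belong to V1. For VhaAC45 and Vha55 the difference was small, at 0.05 and 0.07 on the log2 scale. Vha44 took 4.13 ± 0.146% of the counts in EcRi and 3.21 ± 0.086% in control libraries (SD, n = 3 each). The genes with the lower share were Vha68-2, Vha14-1 and Vha13 of V1 and VhaPPA1-1 and VhaM9.7-b of Vo. VhaPPA1-1 took 2.72 ± 0.076% in EcRi and 3.60 ± 0.148% in control libraries. Between these extremes, the log2 ratio of Vha44 to VhaPPA1-1 counts was 0.55, 0.67 and 0.59 in EcRi libraries, against -0.11, -0.15 and -0.24 in control libraries, a 1.70-fold difference (two-sided exact permutation p = 0.1). The pair was chosen because its members have the extreme fold changes, so that p is a description only. Summed over sectors, the log2 ratio of V1 to Vo counts was 0.25, 0.27 and 0.18 in EcRi libraries, against 0.11, 0.15 and 0.19 in control libraries. The V1 to Vo ratios overlapped, and their difference of 0.08 had an exact permutation p of 0.2.

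**Figure D3:**
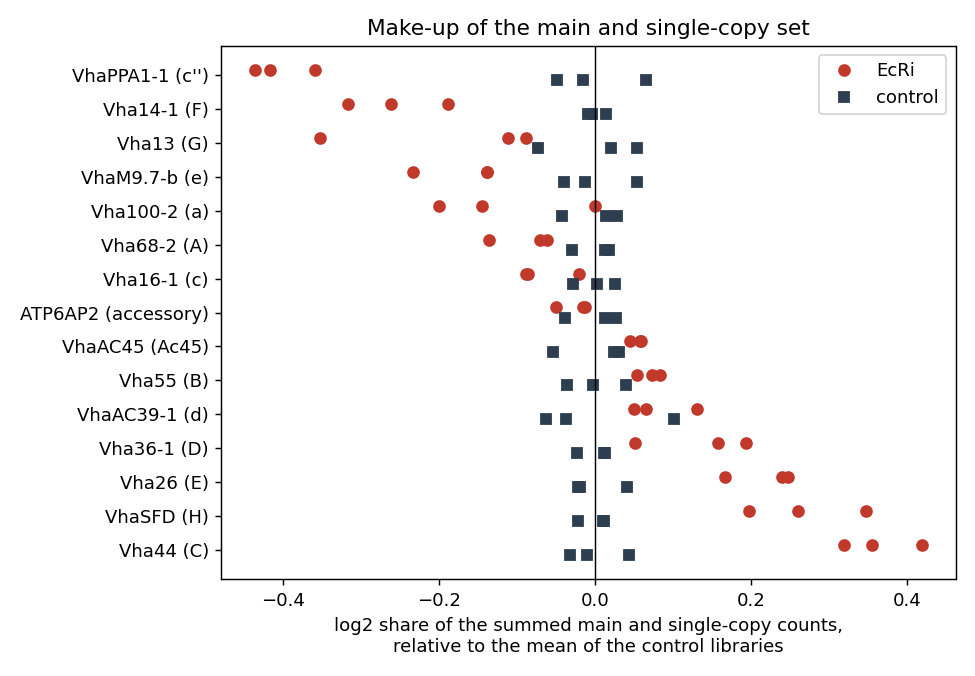
Share of each main or single-copy gene in the summed counts of the 15 genes, per library, as log2 difference from the mean of the control libraries, with EcRi (circles) above control (squares). VhaPPA1-1 and Vha14-1 lie furthest to the left in EcRi and Vha44 and VhaSFD furthest to the right, and for 4 genes the groups overlap.

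Subunit a, which forms the proton half-channels and places the pump, was the subunit with several copies at high level. Vha100-2, classed as the main copy, had 439, 419 and 466 CPM in EcRi libraries, against 936, 993 and 1006 CPM in control libraries, with a log2 fold change of -1.15 (SE 0.11, adjusted p = 6.83e-05 by edgeR). Vha100-5 moved with it. Its level was 303, 318 and 328 CPM in EcRi libraries, against 670, 585 and 689 CPM in control libraries, a log2 fold change of -1.03 (SE 0.11, adjusted p = 0.000134 by edgeR). Exons of Vha100-5 share 527 bases with an antisense RNA gene on the opposite strand. Vha100-1, known in Drosophila as the neuronal copy needed at synapses, went the other way. It had 113, 121 and 122 CPM in EcRi libraries, against 92.4, 87.0 and 95.3 CPM in control libraries, without overlap, and its log2 fold change was 0.37 (SE 0.08, adjusted p = 0.00562 by edgeR) with TMM and 1.03 with library totals.

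Vha100-4 lay between these copies, and its call was not stable. It had 205, 157 and 172 CPM in EcRi libraries, against 222, 230 and 218 CPM in control libraries, and the log2 fold change of -0.33 had an adjusted p of 0.0415 by edgeR's quasi-likelihood test. With library totals the log2 fold change of Vha100-4 was 0.32. The call also ended, with adjusted p between 0.0746 and 0.116, when EcRi replicate 2 or 3 or any of control replicates 1, 2 and 3 was left out. It held at an adjusted p of 0.0167 without EcRi replicate 1, the highest of the EcRi libraries.

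Within subunit a the copies therefore took different shares of the counts per kilobase. Vha100-2 held 39.0 to 40.4% in EcRi and 46.1 to 49.7% in control libraries. Vha100-1 held 9.82 to 11.0% in EcRi and 4.27 to 4.46% in control libraries. Vha100-4 held 17.2 to 21.5% in EcRi and 12.2 to 13.6% in control libraries. In each of these 3 copies the groups were apart. The shares of Vha100-5, 29.7 to 32.7% in EcRi and 32.4 to 36.5% in control libraries, overlapped. Over all entries, EcRi levels with TMM lay apart above control in 34.9% and below in 33.4%. Shares within a subunit also depend on each other, so a copy can gain share without a higher level. Vha100-4 held a higher share in EcRi although its log2 fold change with TMM was -0.33. Vha100-3 was counted 8, 11 and 8 times in the EcRi libraries and 0 times in every control library. Its EcRi mean was 0.0402 ± 0.0043 CPM by library totals and 0.0321 ± 0.0039 CPM with TMM. These means were 2.96-fold and 1.88-fold the control floor of 3 counts per library. The ratios leave out the counting error of the EcRi counts and take each count as 1 fragment, so they are not lower bounds. The difference in Vha100-3 was not tested.

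**Figure D4:**
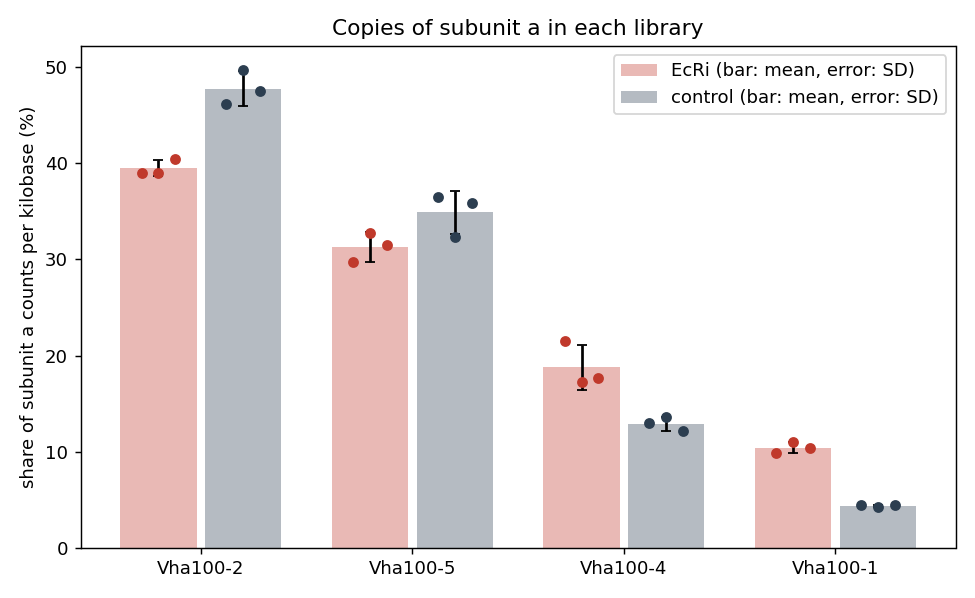
Shares of 4 copies of subunit a in the counts per kilobase of that subunit; bars give the mean, error bars the SD over 3 libraries and points the libraries, with EcRi to the left of control for each gene. Vha100-2 holds the largest share in both groups and a smaller one in EcRi, and the share of Vha100-1 is 9.82 to 11.0% in EcRi and 4.27 to 4.46% in control.

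The balance of other to main copies was then read as a ratio of counts within each library, for the 7 other copies that averaged 1 CPM or more in at least 1 group. For 5 of these pairs the ratio was higher in every EcRi library. The main copies in all pairs fell, so an unchanged other copy would also give a higher ratio. Vha68-1 (log2 fold change -0.19, not called) and Vha100-4 (-0.33, called lower) are among the 5. A share over all entries was not available for such ratios. The log2 ratio of VhaAC45RP to VhaAC45 differed by 2.14, a 4.39-fold difference, that of VhaM9.7-c to VhaM9.7-b by 1.68 (3.20-fold), and that of Vha100-1 to Vha100-2 by 1.52 (2.87-fold). Smaller differences were found for Vha68-1 to Vha68-2, at 0.93 (1.91-fold), and for Vha100-4 to Vha100-2, at 0.81 (1.76-fold). VhaAC39-2 to VhaAC39-1 was the only pair with a lower ratio in every EcRi library, with a difference of -0.80. Each of these 6 pairs had the smallest possible two-sided exact permutation p of 0.1, or 0.117 after Benjamini-Hochberg adjustment over the 7 pairs, so none passed 0.05. The ratio of Vha100-5 to Vha100-2 differed by 0.12, with overlapping groups and an exact p of 0.4.

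**Figure D5:**
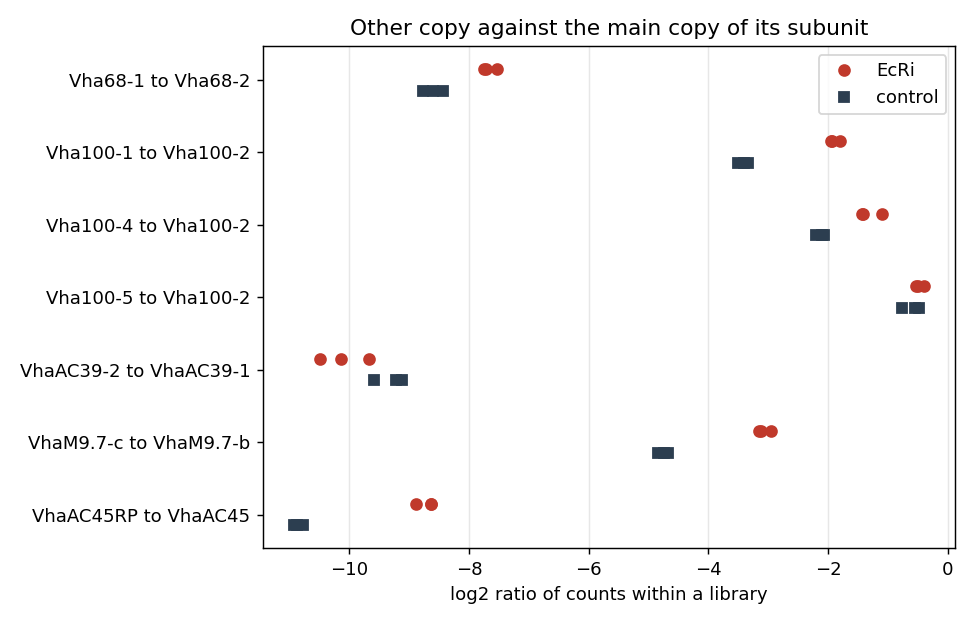
Log2 ratio of the counts of an other copy to the main copy of the same subunit within each library, for 7 pairs, with EcRi (circles) above control (squares). In 5 pairs the EcRi libraries lie to the right of all control libraries, VhaAC39-2 to VhaAC39-1 lies to the left, and Vha100-5 to Vha100-2 overlaps.

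Levels of the other copies of subunits A, d, e and of Ac45 were low relative to their main copies. VhaM9.7-c, a further gene for subunit e, had 22.8, 26.1 and 21.1 CPM in EcRi libraries, against 17.3, 16.3 and 16.6 CPM in control libraries. It rose with a log2 fold change of 0.48 (SE 0.10, adjusted p = 0.00388 by edgeR). Counted together, the other copies of subunit e made up 10.2 to 11.6% of its counts in EcRi and 3.48 to 3.81% in control libraries. VhaAC45RP, a relative of VhaAC45, had 1.42, 1.65 and 1.60 CPM in EcRi libraries, against 0.665, 0.708 and 0.722 CPM in control libraries, and rose by a log2 fold change of 1.16 (SE 0.17, adjusted p = 0.000713 by edgeR). VhaM9.7-d was higher at very low counts: it was found 62, 54 and 54 times in EcRi libraries, against 10, 8 and 8 times in control libraries, with a log2 fold change of 2.06 (SE 0.33, adjusted p = 0.00115 by edgeR). All 4 copies that rose, Vha100-1 included, did so with both scalings.

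VhaAC39-2, the further gene for subunit d, fell, with 0.575, 0.433 and 0.310 CPM in EcRi libraries against 1.09, 1.63 and 1.65 CPM in control libraries. Its log2 fold change was -1.73 (SE 0.29, adjusted p = 0.00146 by edgeR), and -1.08 with library totals. Vha68-1, a catalytic subunit known to be close in sequence to Vha68-2, had 5.98, 6.57 and 5.82 CPM in EcRi libraries, against 7.27, 7.02 and 6.67 CPM in control libraries. Its log2 fold change of -0.19 was not called (adjusted p = 0.125 by edgeR). With library totals Vha68-1 was instead called higher, at a log2 fold change of 0.46 (adjusted p = 0.0182 by edgeR). Reads shared by copies this similar could be counted for either gene, and how such reads were treated is not given in the sources used here. Vha68-3 had 0.152, 0.136 and 0.261 CPM in EcRi libraries, against 0.353, 0.434 and 0.355 CPM in control libraries. Its log2 fold change of -1.05 had an adjusted p of 0.0233 by edgeR, which became 0.0747 without EcRi replicate 1, 0.0725 without EcRi replicate 2 and 0.0689 without control replicate 2. With library totals Vha68-3 had a log2 fold change of -0.40 (adjusted p = 0.345 by edgeR), and its libraries overlapped.

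Other copies at the lowest levels gave no firm comparison at this depth. Vha36-3 (D), Vha16-5 (c) and VhaM9.7-a (e) passed the filter with at most 81 counts in any library and were not called, with log2 fold changes of -0.48, -1.15 and -0.47. Leaving out EcRi replicate 3 brought Vha16-5 to a log2 fold change of -1.69 with an adjusted p of 0.0317 by edgeR. Vha36-2, Vha14-2, Vha16-4 and VhaPPA1-2 did not pass the filter, and neither did Vha100-3. Vha36-2 was counted 2, 8 and 14 times in EcRi libraries, against 4, 12 and 6 times in control libraries. Vha14-2 reached 23 counts in EcRi replicate 2 and no more than 6 in any other library. Vha16-4 was counted 5, 10 and 3 times in EcRi libraries, against 12, 2 and 0 times in control libraries, and VhaPPA1-2 only in EcRi libraries, 4, 2 and 3 times. Vha16-2 and Vha16-3 had 0 counts in all 6 libraries, where 3 counts per library is the limit. Proteolipid transcripts of type c were thus nearly all those of Vha16-1: the other 4 genes of that subunit had 10, 24 and 26 counts together in EcRi libraries, against 34, 18 and 20 in control libraries.

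Several copies lie next to each other in the genome. Coordinates are those of BDGP6.54, the assembly of the dm6 build named in the submitters' processing notes. On chromosome 3R, Vha100-4 (18386841 to 18389805) lies 517 bases from the annotated span of Vha100-2 (18390323 to 18399169) on the same strand. These 2 neighbours had log2 fold changes of -0.33 for Vha100-4 and -1.15 for Vha100-2. On chromosome 2L, Vha68-3 (12978786 to 12981293) begins 178 bases past Vha68-2 (12974322 to 12978607), again on the same strand, and its level per kilobase was far below that of Vha68-2. VhaPPA1-2 (14899606 to 14900277) and VhaPPA1-1 (14902330 to 14904061) on chromosome 3R are 2052 bases apart, and Vha16-3 and Vha16-2 on chromosome 3L are 985 bases apart. Exons of 6 of the 34 genes overlap a gene on the opposite strand, among them Vha100-1 by 11 bases and Vha100-4 by 47 bases.

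Genes that assemble or control the pump were counted from a separate list. Of 11 tested, 4 fell and 7 were not called, and their median difference was -0.26 on the log2 scale, where 30.1% of all entries rose and 29.3% fell. With library totals 6 of the 11 rose and 1 fell, close to the 57.3% and 12.7% over all entries. Mitf, the fly member of the MITF/TFEB family that is known to activate V-ATPase genes, had 66.9, 63.3 and 70.0 CPM in EcRi libraries, against 112, 98.5 and 94.8 CPM in control libraries. Its log2 fold change was -0.61 (SE 0.10, adjusted p = 0.000986 by edgeR) with TMM and 0.04 with library totals. CG5969, listed as an assembly factor, had 7.04 ± 0.463 CPM in EcRi and 15.4 ± 0.096 CPM in control libraries, and its log2 fold change of -1.13 remained called with library totals, at -0.48. Lamtor4 and RagC-D belong to the amino acid sensing machinery on the lysosome. Their log2 fold changes were -0.67 and -0.36 with TMM, and -0.02 and 0.30 with library totals. RagC-D was thus called lower with TMM (adjusted p = 0.00827 by edgeR) and higher with library totals (adjusted p = 0.0261 by edgeR).

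Lysosomal hydrolases and membrane proteins, which work in the space that the pump acidifies, were called in both directions. Of 15 tested, 5 rose and 4 fell, with a median difference of 0.14 on the log2 scale, shares close to the 30.1% and 29.3% over all entries. With library totals 12 rose and 1 fell, where 57.3% of all entries rose and 12.7% fell. Gba1a, a glucocerebrosidase, had 467 ± 78.6 CPM in EcRi and 92.5 ± 38.7 CPM in control libraries, a log2 fold change of 2.33. The cysteine proteases CtsF and CtsL1 rose by log2 fold changes of 1.73 and 1.71. Cln3, a lysosomal membrane protein, fell, with 46.0 ± 6.67 CPM in EcRi and 107 ± 10.3 CPM in control libraries and a log2 fold change of -1.22, while the main and single-copy V-ATPase genes had a median of -1.06.

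Among acid-base and ion transporters, which act beside the pump in gut and tubule epithelia, 12 of 21 tested genes fell and 3 rose, where 29.3% of all entries fell and 30.1% rose. Their median log2 fold change was -0.37, and with library totals 6 fell and 10 rose, where 12.7% of all entries fell and 57.3% rose. CAH2, a carbonic anhydrase, rose, with 404, 628 and 520 CPM in EcRi libraries, against 44.0, 64.6 and 44.2 CPM in control libraries, a log2 fold change of 3.35 (SE 0.23, adjusted p = 2.25e-05 by edgeR). Irk2, an inward-rectifier potassium channel, had 5.73, 7.61 and 17.3 CPM in EcRi libraries, against 183, 193 and 151 CPM in control libraries, and its log2 fold change was -4.10 (SE 0.48, adjusted p = 0.000705 by edgeR). Irk3, of the same channel family and also counted among the Malpighian tubule markers, had a log2 fold change of -2.42. Ae2, an anion exchanger, had 116 ± 37.5 CPM in EcRi and 503 ± 59.0 CPM in control libraries, with a log2 fold change of -2.12. These 4 genes kept their directions with library totals.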

How the data were processed

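Raw counts per gene were analysed from 3 EcRi and 3 control RNA-seq libraries of whole larval intestine. Per the methods, the authors removed adaptors (Trim Galore!), aligned reads to dm6 (HISAT2), counted with featureCounts on Galaxy and deposited the counts without normalization; strand, multi-mapping and fragment settings and tool versions are not given in the sources used here. The labels name a Qiagen RNeasy kit and a SMARTer library kit, and the methods name TRIZOL. Low counts (1 to 19) were even in 61.5 to 64.7% of cases, so a count need not be 1 fragment.

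Symbols were matched for 97.83% of 24278 IDs. Tests used edgeR 4.0.16 in R 4.3.3 (filterByExpr, TMM, robust quasi-likelihood test over 12193 entries, Benjamini-Hochberg adjustment, threshold 0.05), with limma 3.58.1 and DESeq2 1.42.0 as alternatives and SciPy 1.17.1 for two-sided exact permutation tests. Standard errors came from the F statistic (absolute log2 fold change over its square root). Exon lengths are unions over transcripts of Ensembl release 115 (BDGP6.54). The edgeR fit was run on simulated counts with 200 of 12193 entries changed. It called 68.4% of the changed entries that passed the filter in the right direction. Far fewer entries changed there than were called in the data, so the simulation does not check the scaling. Genes were named by rule: all V-ATPase genes, EcR, Mitf and up to 4 genes with the largest absolute log2 fold change among those called in each context list; summed levels stand for marker lists. The members and lists were chosen with earlier results of these data known. Alternatives covered scaling, test, filter, features, a replicate block and each library left out. Sequences were not used here, and a planned count of promoter motifs was not run. Of the listed genes, 1 of 13 assembly genes and 1 of 4 progenitor markers were not analysed here.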

Additional observations from a re-analysis of the deposited data

How the results depend on the processing

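Scaling had the widest effect. With library totals, 12 V-ATPase genes fell in place of 19, the median log2 fold change was -0.31 over all tested members, -0.41 over main and single-copy genes and 0.27 over other copies, and the signs of Vha68-1 (0.46), Vha36-3 (0.16), Vha100-4 (0.32) and VhaM9.7-a (0.22) turned positive. In the context lists, library totals gave 6 higher and 1 lower among assembly genes, 12 higher and 1 lower among lysosomal genes, and 10 higher and 6 lower among transporters. Without a filter the median over all members was -0.83. Over the omissions of single libraries, the log2 ratio of other copies to the main copy ranged from -0.24 to 0.67 for subunit D and from -0.11 to 0.46 for subunit c, the log2 fold change of VhaM9.7-a from -0.69 to 0.023, and the number of higher assembly genes from 0 to 1. All 15 main and single-copy genes were called lower under RLE factors, upper-quartile factors, DESeq2, limma-voom, both other filters, genes only, the replicate block and every omission of 1 library. Over the tested members and all alternatives, 379 of 403 gene results kept their direction and their side of the threshold, 18 lost the call, 1 gained it and 5 changed sign, among them Vha68-1, which was then called higher.

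Libraries with the same number did not deviate together (correlations of -0.057, 0.037 and -0.059 over 12193 entries), so the numbers were not taken as pairs. With the replicate block 4 V-ATPase genes rose and 18 fell, and the call that was lost was that of Vha100-4 (adjusted p = 0.0662 by edgeR); no other call among the members changed. The block gave medians of -0.96 over all members, -1.06 over main and single-copy genes and -0.36 over other copies. Depth limits Vha36-2, Vha14-2, Vha100-3, Vha16-2, Vha16-3, Vha16-4 and VhaPPA1-2, whose counts lay at or near the floor.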

Other observations

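Of the 6 Malpighian tubule markers that were called with TMM, Uro alone rose, whereas with library totals Lkr, SecCl and ZnT35C rose as well; the single markers named here were chosen after their values were seen. Uro, the urate oxidase of the tubule, had 1308 ± 127 CPM in EcRi and 562 ± 81.4 CPM in control libraries (SD, n = 3 each), with a log2 fold change of 1.22. Smvt had 7.43 ± 4.76 CPM in EcRi and 217 ± 6.85 CPM in control libraries, and Picot, a predicted phosphate cotransporter, had 269 ± 17.5 CPM in EcRi and 1104 ± 261 CPM in control libraries, with log2 fold changes of -4.87 and -2.03. All 3 had adjusted p-values below 0.05 by edgeR's quasi-likelihood test and kept their directions with library totals. Sums were also taken for the remaining marker lists. Middle midgut markers summed to 2084 to 2573 CPM in EcRi and 1294 to 1595 CPM in control libraries. That sum was made up mostly of MtnA, with means of 2267 CPM in EcRi and 1276 CPM in control libraries. Of the 4 middle midgut markers, MtnA rose and Ptx1 fell with TMM, and lab and dve were not called. With library totals 3 of the 4 rose and 0 fell. Fat body markers summed to 185 to 938 CPM in EcRi and 35.2 to 490 CPM in control libraries. Enterocyte markers summed to 6663 to 11289 CPM in EcRi and 47832 to 88828 CPM in control libraries, a sum made up mostly of Jon65Aiv. Sums of enteroendocrine markers were 129 to 135 CPM in EcRi and 136 to 151 CPM in control libraries. Progenitor markers summed to 29.8 to 36.3 CPM in EcRi and 18.04 to 23.5 CPM in control libraries. Most of that difference came from Sox21a, with means of 17.5 CPM in EcRi and 8.07 CPM in control libraries. Of the 3 progenitor markers, Sox21a rose with TMM and esg and klu were not called, whereas all 3 rose with library totals. Foregut and hindgut markers (130 to 148 CPM in EcRi, 132 to 141 CPM in control libraries) and haemocyte markers (at most 42.5 CPM in EcRi, at most 37.8 CPM in control libraries) overlapped between the groups.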
